A study of Homo sapiens with 2 samples.

Results

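The genes of nucleotide, serine and one-carbon metabolism comprised 33 enzymes that build purine and pyrimidine nucleotides, turn them into DNA precursors, recover free bases and nucleosides, and supply serine and folate-bound carbon units. They were chosen by symbol, and each symbol was matched through the GRCh37 annotation to a row of the gene tables, so that 33 of 57736 genes were analysed and all 33 had a row in both replicates. The RNA came from untreated HEK293T cells, a line established from human embryonic kidney with adenovirus DNA and the SV40 large T antigen, grown in DMEM with fetal bovine serum and labelled wild type. Poly(A)+ RNA was sequenced in 1 group with 2 replicates, and no other condition was compared. Nothing in the labels says whether the replicates came from separate cultures, so each SD describes the spread between these libraries, which may be technical.

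Purines are assembled stepwise on the activated sugar phosphoribosyl pyrophosphate (PRPP), with glycine, glutamine, aspartate and formyl groups carried by folate, and end at IMP, from which AMP and GMP are made. Pyrimidines are assembled as a ring first and joined to PRPP afterwards, giving UMP. Serine, made from a glycolytic intermediate, gives up a carbon to folate, and this carbon feeds purine synthesis and the methylation of dUMP to dTMP, while salvage enzymes reuse bases and nucleosides at lower cost. Proliferating cell lines are known for high activity of these pathways.

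All 33 genes reached a TPM (a level per unit of transcript length, set to a common sum per library) of 1 or more in each replicate. The background share was 27.7% of all genes with a row and 63.7% of protein-coding genes. The median level of the 33 was 132 TPM, against 21.2 TPM for the 12345 detected protein-coding genes. Of the 33 genes, 31 were above that median and 19 were at or above the 90th percentile of those genes, which was 105 TPM. DHODH and DCK were the exceptions, at the 34.4th and 32.8th percentile. Together the genes held 4971 TPM in replicate 1 and 4817 TPM in replicate 2, which is 0.497% and 0.482% of all transcripts. The libraries held 10593491 and 10104118 estimated counts, and each gene rested on between 101 and 6244 counts per library.

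**Figure D1:**
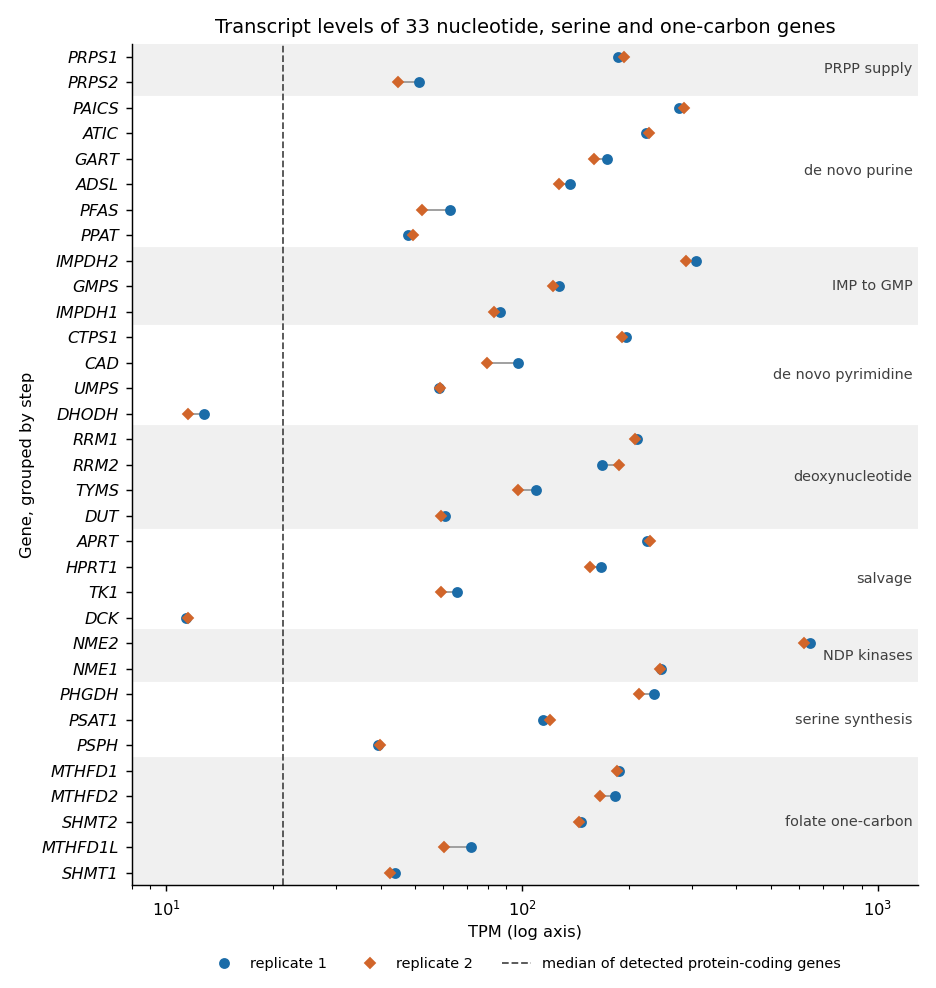
TPM on a log axis for each of the 33 genes, grouped by pathway step and sorted within a step. Circles are replicate 1, diamonds replicate 2, and the dashed line is the median of detected protein-coding genes at 21.2 TPM. NME2 lies at the right at 645 and 620 TPM, and only DCK and DHODH lie left of the dashed line.

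**Figure D2:**
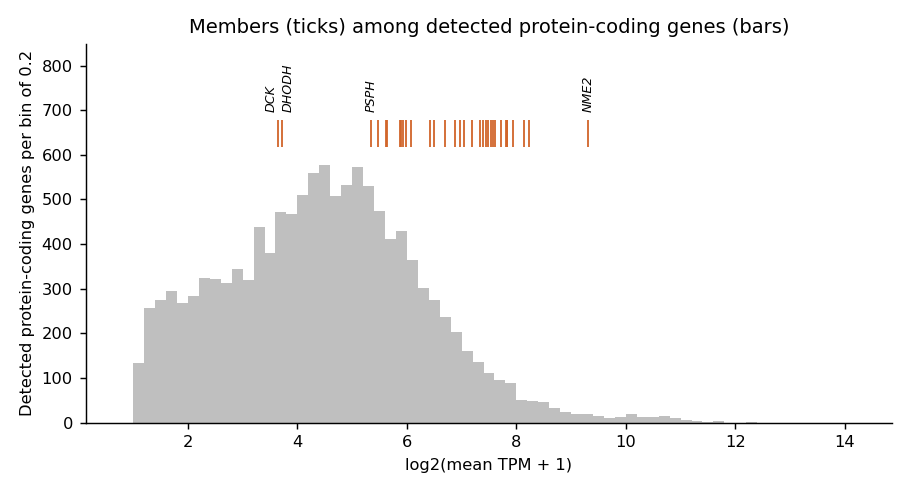
Number of detected protein-coding genes (bars, 12345 genes) by log2(mean TPM + 1), in bins of 0.2, with a tick for each of the 33 genes. 31 of the ticks lie above the median of the bars, and DCK and DHODH lie below it.

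The tissue label of the samples is kidney, and its markers were mostly not detected. Of 10 kidney markers, LRP2 at 9.12 TPM and PAX2 at 3.40 TPM passed the detection threshold, and the summed level of all 10 was 12.95 and 12.87 TPM in the replicates. UMOD, AQP2 and SLC34A1 were at 0 counts. Of 6 markers of blood, endothelial, liver and fibroblast cells with a row, only COL1A1 was detected, at 8.88 TPM, and their sums were 10.6 and 7.64 TPM. A gene with no counts may still have had up to 3, which is 0.283 CPM in replicate 1 and 0.297 CPM in replicate 2, and this limit covers counting error only. In these bulk samples fewer cells with a transcript and less of it per cell cannot be told apart.

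PRPP, the sugar donor shared by purine synthesis, pyrimidine synthesis and base salvage, is made by the PRPP synthetases. PRPS1 stood at 186 and 194 TPM in replicates 1 and 2, and PRPS2 at 51.4 and 44.9 TPM. Both replicates placed PRPS1 far above PRPS2, and the ratio was 3.97 ± 0.503 (SD, n = 2). PRPS1L1, a further synthetase gene, had 0 counts in both libraries.

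The 6 de novo purine genes covered a wide range of levels. PPAT, the amidotransferase of the committed step, stood at 47.9 and 49.3 TPM. GART, which carries several early steps on a single protein, stood at 173 and 160 TPM. PFAS, the amidotransferase that acts on a product of GART, stood at 62.6 and 52.2 TPM. PPAT and PFAS, both amidotransferases, were thus the lowest of the group in both replicates.

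PAICS, which adds a carboxyl group and aspartate to the growing ring, was the highest purine gene at 276 and 285 TPM. ADSL, the lyase that acts here and in AMP synthesis, stood at 136 and 127 TPM. ATIC, which closes the ring to give IMP, stood at 223 and 228 TPM. The values of the replicates of PAICS, ATIC, GART and ADSL did not overlap with each other, nor with those of PFAS or PPAT. PAICS was 5.77 ± 0.0251 times PPAT, ATIC 4.64 ± 0.0260 times, GART 3.43 ± 0.267 times and ADSL 2.71 ± 0.191 times (SD, n = 2).

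PPAT and PAICS are neighbours on chromosome 4 that are read away from each other. PPAT lies at chr4:57259528-57301781 on the minus strand and PAICS at chr4:57301907-57330744 on the plus strand (GRCh37). The 125 bp between the annotated starts hold 76.0% G and C and 15 CpG dinucleotides. They are printed because a single short stretch separates the lowest and the highest gene of the purine series. No letter is in capitals because none of the motifs searched (listed below with the promoters) occurs in them. The E-box of the PPAT promoter begins at -182 relative to the PPAT start, outside these 125 bp.
PPAT-PAICS gap: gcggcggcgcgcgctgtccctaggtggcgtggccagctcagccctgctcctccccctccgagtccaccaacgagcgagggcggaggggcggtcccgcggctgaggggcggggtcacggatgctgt

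GMP is made from IMP by an oxidation and an amination. IMPDH2, the dehydrogenase isozyme associated with proliferating cells, stood at 308 and 290 TPM and IMPDH1 at 86.4 and 83.6 TPM. The ratio of IMPDH2 to IMPDH1 was 3.51 ± 0.0648 (SD, n = 2). GMPS, the GMP synthetase, stood at 127 and 122 TPM, between the isozymes and apart from both in each replicate, and IMPDH2 was 2.39 ± 0.0357 times GMPS.

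Among the 4 genes of pyrimidine synthesis, CAD, a large protein that carries the opening steps, stood at 97.6 and 79.8 TPM. DHODH, the dehydrogenase of the inner mitochondrial membrane, stood at 12.8 and 11.5 TPM on 144 and 101 counts. UMPS, which joins the ring to PRPP and forms UMP, stood at 58.5 and 58.8 TPM. CTPS1, which makes CTP from UTP, was the highest of the group at 196 and 191 TPM. No values of these 4 genes overlapped, and CTPS1 was 16.0 ± 0.870 times and CAD 7.29 ± 0.488 times DHODH (SD, n = 2). DHODH was one of the lowest levels of all 33 genes and did not differ from DCK beyond the spread between replicates.

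Deoxynucleotides are made from ribonucleotides by ribonucleotide reductase. RRM1, its large catalytic subunit, stood at 210 and 208 TPM, and RRM2, the small subunit that is made mainly in S phase, at 168 and 188 TPM. RRM1 was the higher in each replicate, with a ratio of 1.18 ± 0.1001 (SD, n = 2). RRM2B, a small subunit known for use outside S phase, stood at 10.3 and 10.4 TPM, and RRM2 was 17.1 ± 1.142 times as high. TYMS, the thymidylate synthase that uses a folate carbon to turn dUMP into dTMP, stood at 109 and 97.1 TPM. DUT, which removes dUTP and supplies dUMP, stood at 60.9 and 59.3 TPM. TYMS was 1.72 ± 0.108 times DUT.

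The 4 salvage genes differed widely in level. APRT, which turns adenine into AMP, stood at 225 and 229 TPM, and HPRT1, which recovers hypoxanthine and guanine, at 166 and 155 TPM. TK1, the cytosolic thymidine kinase of S phase, stood at 65.7 and 59.4 TPM. DCK, the deoxycytidine kinase, was the lowest of the 33 genes at 11.4 and 11.5 TPM. The purine base enzymes were thus above the nucleoside kinases in both replicates, and APRT was 19.8 ± 0.0599 times DCK (SD, n = 2). In mitochondria DGUOK and TK2 phosphorylate deoxynucleosides. DGUOK, at 61.5 and 58.8 TPM, was 5.25 ± 0.209 times DCK, and TK2 stood at 3.74 and 4.64 TPM, below both TK1 values.

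Nucleoside diphosphate (NDP) kinases transfer a phosphate between nucleoside triphosphates and diphosphates of any base. NME2 was the highest of the 33 genes at 645 and 620 TPM, and NME1 stood at 246 and 244 TPM. The ratio of NME2 to NME1 was 2.58 ± 0.0502 (SD, n = 2). They are neighbours on chromosome 17, NME1 at chr17:49230920-49239789 and NME2 at chr17:49242796-49249105 (GRCh37, plus strand), and the annotation also holds NME1-NME2, a gene of read-through transcripts that overlaps both. At this locus 27.9% and 27.5% of the estimated counts were given to NME1, 59.4% and 59.8% to NME2, and 12.7% and 12.8% to the read-through. The read-through had 691 and 645 estimated counts with posterior SDs (the uncertainty of sharing out reads) of 90.3 and 76.5, whereas NME2 had 3232 and 3022 counts with posterior SDs of 66.0 and 62.9. NME1 and NME2 shared 17.6% and 23.9% of the 50-base windows of their transcripts with the read-through, so the division among the 3 rows is an estimate.

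The coding sequences of NME1 and NME2 are each 456 nt long and 369 of these bases are identical, which is 80.9%. The longest identical run was 23 nt, and no 50-base window, the length of a read, occurs in both. The opening 90 coding bases are printed to show how closely spaced the differences are, with the 18 positions that differ in capitals (GRCh37, transcripts of the reference annotation).
NME1: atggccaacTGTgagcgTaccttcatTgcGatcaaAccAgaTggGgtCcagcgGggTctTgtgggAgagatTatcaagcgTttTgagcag
NME2: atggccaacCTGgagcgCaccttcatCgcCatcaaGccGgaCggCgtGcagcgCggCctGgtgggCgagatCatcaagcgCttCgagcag

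Serine is made from phosphoglycerate in a short chain. PHGDH, the dehydrogenase that opens it, stood at 235 and 213 TPM. PSAT1, the transaminase that follows, stood at 115 and 120 TPM, and PSPH, the phosphatase that releases serine, at 39.5 and 40.0 TPM. The levels fell from step to step in both replicates, with PHGDH 1.91 ± 0.201 times PSAT1 and 5.64 ± 0.456 times PSPH (SD, n = 2).

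Serine passes its carbon to folate through the hydroxymethyltransferases. SHMT2, the mitochondrial enzyme, stood at 147 and 144 TPM and SHMT1, the cytosolic enzyme, at 43.9 and 42.6 TPM, a ratio of 3.37 ± 0.0321 (SD, n = 2). MTHFD2, the mitochondrial dehydrogenase and cyclohydrolase, stood at 183 and 166 TPM. MTHFD1L, which releases formate in mitochondria, stood at 72.0 and 60.2 TPM, and MTHFD2 was 2.64 ± 0.152 times as high. MTHFD1, which interconverts folate carbon units in the cytosol, stood at 187 and 185 TPM. MTHFD1 was above MTHFD2 in each replicate, with a ratio of 1.07 ± 0.0671. The log2 ratio of MTHFD2 to MTHFD1 was -0.09 by TPM and -0.93 by counts not divided by length. MTHFD2L, an isozyme of MTHFD2, stood at 10.6 and 10.4 TPM.

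**Figure D3:**
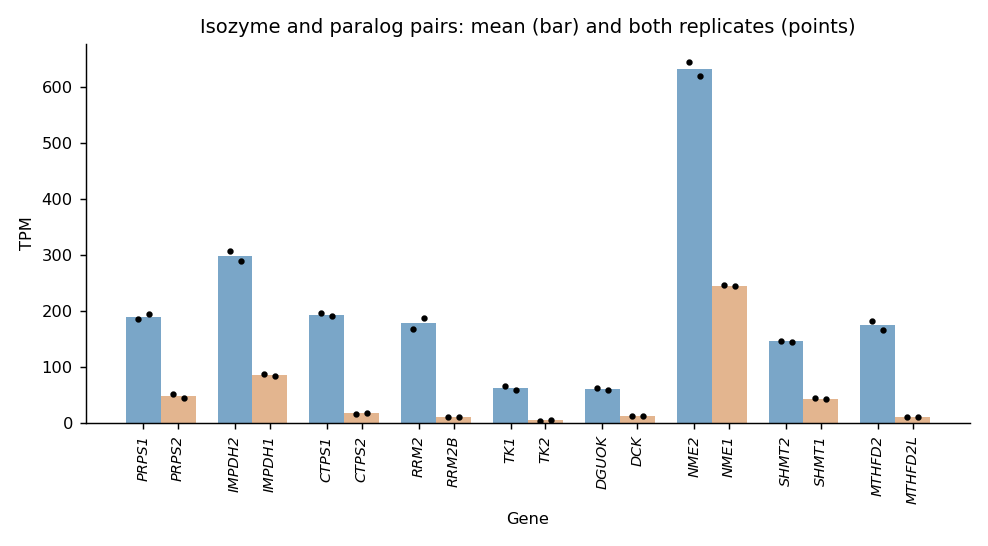
TPM of 9 pairs of isozymes or paralogs, with bars for the mean of 2 replicates and points for each replicate. In every pair plotted the points of the genes are apart, from a ratio of 2.58 for NME2 to NME1 up to 17.1 for RRM2 to RRM2B.

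For the isozyme pairs of members the replicates thus gave the same order, and this could not be turned into a p-value below 0.333, the smallest that an exact permutation of 2 against 2 values allows. The coding identity was 79.8% for PRPS1 and PRPS2, 76.7% for IMPDH1 and IMPDH2 and 66.5% for SHMT1 and SHMT2, with no 50-base window in both genes of a pair. CTPS2, RRM2B, TK2, DGUOK and MTHFD2L were set beside their partners after their values had been seen. CTPS2, the second CTP synthase gene, stood at 16.3 and 17.0 TPM, and CTPS1 was 11.6 ± 0.616 times as high.

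Groups of 2 to 6 genes were ordered by the median TPM of their genes. The NDP kinases, here only NME1 and NME2, came first with 439 ± 9.66 TPM (SD of the median over 2 replicates). De novo purine synthesis followed with 149 ± 8.23, folate-bound carbon with 146 ± 1.75 and deoxynucleotide synthesis with 140 ± 2.78 TPM. The values of purine synthesis and folate overlapped between replicates, so their order was not resolved. The GMP branch had 125 ± 3.41, PRPP supply 119 ± 0.693, serine synthesis 117 ± 3.92, salvage 112 ± 6.11 and pyrimidine synthesis 73.7 ± 6.20 TPM. PRPP supply overlapped serine synthesis, which overlapped salvage, while pyrimidine synthesis lay below all others in both replicates. The first place of the NDP kinases depends on which genes were chosen. The 6 other NDP kinase genes had a median of 43.6 TPM, below that of pyrimidine synthesis, although NME4 among them reached 242 TPM.

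Against salvage, the median of purine synthesis was 1.34 ± 0.000612 times as high, that of folate-bound carbon 1.305 ± 0.0557 times and that of pyrimidine synthesis 0.659 ± 0.0194 times (SD, n = 2). Each median rests on 4 to 6 genes that spread far more than the replicates do, and APRT, a salvage gene, was above 5 of the 6 purine genes in each replicate, though not separated from ATIC. With NME1 and NME2 counted as salvage and the purine group widened by PRPP supply and the GMP branch, the purine ratio turned to 0.680, that of folate-bound carbon with serine synthesis to 0.678, and the pyrimidine ratio fell to 0.380. Without division by length the pyrimidine ratio turned to 1.54 and the purine ratio became 2.44. In replicate 1 the gene length, the mean transcript length weighted by isoform, was 3863 nt for CAD and 648 nt for APRT.

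In the order of all 33 levels, the ranges of the replicates overlapped in 16 of 32 neighbouring pairs. NME2, IMPDH2, PAICS and NME1 each stood apart from the next gene. APRT, ATIC and PHGDH were not separated from each other, and neither were the neighbours from CTPS1 down through PRPS1, MTHFD1, RRM2, MTHFD2, GART and HPRT1. At the low end PSPH was apart from DHODH, and DHODH was not apart from DCK. From NME2 to DCK the level changed 55.2 ± 1.99 fold (SD, n = 2).

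To ask whether the libraries differed beyond counting error, the rounded counts of each gene were set against library sizes scaled by TMM (a scaling factor) in a two-sided exact binomial test. It compares these libraries and not conditions, and was adjusted by Benjamini-Hochberg over 17920 genes. Only PPAT passed, 1 of 33 genes or 3.03%, beside a background of 3.87% of all genes tested. PPAT had 924 counts in replicate 1 and 1038 in replicate 2, a log2 difference of 0.25 with an adjusted exact p of 0.00816. Its TPM values of 47.9 and 49.3 were closer, and its gene length was 2631 nt in replicate 1 and 2983 nt in replicate 2. Unadjusted p-values below 0.05 were found for 7 of the 33 genes, or 21.2%, beside 13.3% of all genes tested. They were PPAT, ATIC, DHODH, HPRT1, PHGDH, PSAT1 and MTHFD1L.

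The median absolute difference between replicates was 0.056 on the log2(TPM + 1) scale, against 0.14 for all detected genes and 0.11 for the 8743 detected genes within the TPM range of the 33. The difference reached 0.29 at most, for CAD. TPM was higher in replicate 1 for 23 genes and in replicate 2 for 10 genes. By counts scaled to library size these numbers were 19 and 14. The same split over all detected genes is not given, so these numbers do not set the 33 genes apart from others.

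**Figure D4:**
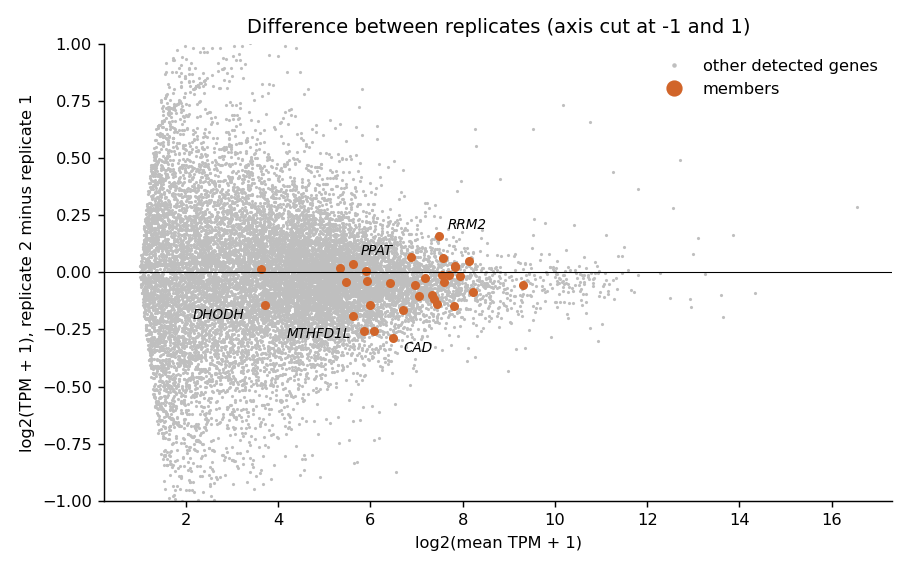
Difference of log2(TPM + 1), replicate 2 minus replicate 1, against log2(mean TPM + 1) for all detected genes (grey) and the 33 genes (orange). The orange points lie within 0.29 of 0, and 207 detected genes, none of them among the 33, lie beyond the plotted range of -1 to 1.

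For 7 genes the effective length, the gene length corrected for fragment size, differed by over 10% between the replicates. TPM is divided by this length, so for the 7 genes the difference in TPM departed from that in counts by construction. CAD had 2778 and 2712 counts, yet 97.6 and 79.8 TPM, with gene lengths of 3863 and 4777 nt. PFAS had 1811 and 1683 counts and gene lengths of 3927 and 4533 nt. HPRT1 with an effective length ratio of 1.146, PRPS2 with 1.140 and PPAT with 1.136 also had longer estimates in replicate 2. RRM2 and DHODH had shorter ones, by ratios of 0.875 and 0.810, and RRM2 was higher in replicate 2 by TPM with fewer counts, 2324 against 2467. In DHODH the log2 difference was -0.43 by counts and -0.14 by TPM.

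**Figure D5:**
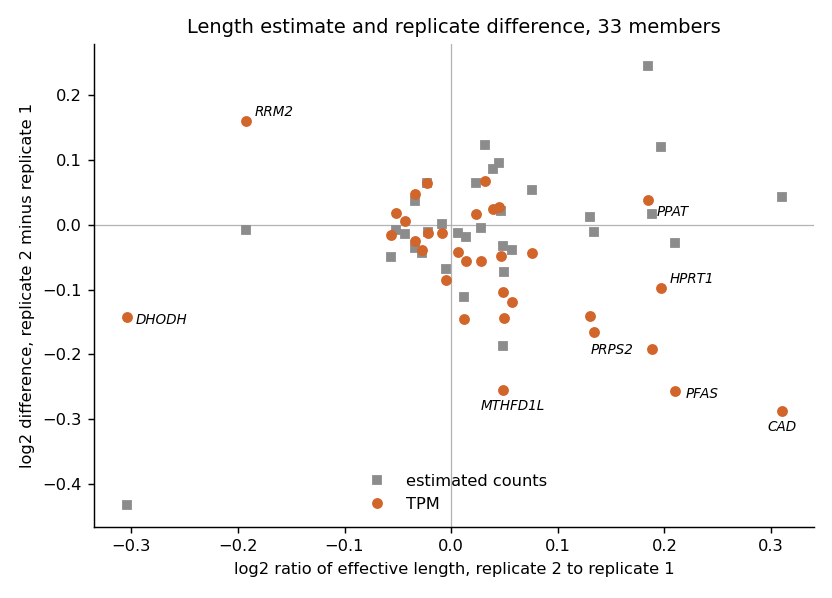
Log2 difference between replicates (replicate 2 minus replicate 1) in estimated counts (grey squares) and in TPM (orange circles) against the log2 ratio of effective length for the 33 genes. CAD, PFAS, PRPS2, HPRT1 and PPAT at the right lie lower in TPM than in counts, and DHODH and RRM2 at the left lie higher in TPM than in counts. This pattern follows from the division of TPM by effective length.

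Most of these genes have few reads that fit other genes. Counts were whole numbers for 14 of the 33, and the posterior SD was under 1% of the count in 31, the exceptions being NME1 and NME2, with at most 2.20%. Of the 50-base windows of their annotated transcripts, a median of 2.07% also occurred in another gene, and 8 genes shared none. MTHFD2 shared 31.4% of its windows, mostly with SLC4A5 on the opposite strand (25.4% of all its windows), which held only 18.9 and 13.7 counts. TYMS shared 17.4% of its windows, and 13.3% of all its windows also occurred in ENOSF1, a gene on the opposite strand with 451 and 427 counts. The strand setting of the counting is not given in these sources, so reads in such overlaps cannot be told apart by strand.

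Other genes that overlap a member on the annotation and reached a mean of 1 TPM were SON and BTF3P6 at GART, CTC1 at PFAS, SGSM3 and SGSM3-AS1 at ADSL, MOB1B at DCK, SMCR8 at SHMT1, NDUFA4L2 at SHMT2, ZBTB25 at MTHFD1, TYMSOS at TYMS, DUT-AS1 at DUT, SNORA2 at RRM2, MIR544B at UMPS, and ARL4AP5 and RPL32P16 at MTHFD1L, beside unnamed lncRNA genes at IMPDH2 and MTHFD1. SON was the highest of them with 204 ± 19.5 TPM, and its 7991 and 7864 counts exceeded those of GART, 2941 and 2712. The overlap of SON and GART spans 454 bp. Some of the others rest on very few counts: MIR544B on 0 and 1, SNORA2 on 3 and 3, and BTF3P6 on 5 and 3. ARL4AP5 had 4.69 and 3.81 counts, and RPL32P16 3.21 and 4.63.

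Processed copies of mRNAs are common for abundant transcripts, and 16 of the 33 genes had annotated pseudogene copies, 56 in all. These copies held 0.171% ± 0.00998 of the counts of members and copies together (SD, n = 2), or 0.332% by TPM, and 32 of them had no counts in either library. Copies with at least 10 counts in a replicate were PRPS1P2 (21.6 and 16.3), RRM2P3 (16.9 and 25.3), PAICSP1 (11.2 and 17.4), IMPDH1P8 (14.2 and 4.06) and DUTP7 (10 and 4). DUT had the largest share at its copies, 6.34% in replicate 1 and 3.29% in replicate 2, over 8 copies. IMPDH1 had 10 copies with 1.69% and 0.537%.

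Promoter sequences of RefSeq (GRCh38.p14, 250 bases before to 50 after the start) were found for 29 of the 33 genes, and ADSL, IMPDH2, PSPH and SHMT2 had no entry. The PAICS entry begins at another start inside PPAT. Their median content of G and C was 64.0%, against 58.3% over 27305 promoters. Motifs were searched on both strands, and a match describes letters and not a site in use. The E-box CACGTG occurred in 7 of 29 promoters (24.1%, against 7.43% of all), those of PPAT, ATIC, DHODH, DCK, NME1, MTHFD1 and MTHFD1L. The CCAAT box occurred in 13 (44.8% against 35.7%) and the E2F site, searched as TTTCCCGC, TTTCGCGC, TTTGCCGC or TTTGGCGC, in 3 (10.3% against 3.33%), those of PRPS2, TYMS and DCK. GCATGCGC, the core of the NRF1 site, occurred in CTPS1 and MTHFD1 (6.90% against 3.27%), and TGATGNAA, an ATF4 element, in MTHFD1L alone (3.45% against 3.67%).

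The 120 bases before the start are shown for 4 of these genes as examples: an E-box in ATIC (chr2:215311939-215312058), an E2F site in TYMS (chr18:657533-657652), 3 CCAAT boxes in PSAT1 (chr9:78297005-78297124), and overlapping NRF1 cores with an E-box in MTHFD1 (chr14:64388233-64388352), all on the plus strand, with the motifs in capitals. PSAT1 is shown also because its CCAAT boxes begin at -113, -83 and -52 relative to the start, and those of RRM2 at -123, -93 and -66.
ATIC: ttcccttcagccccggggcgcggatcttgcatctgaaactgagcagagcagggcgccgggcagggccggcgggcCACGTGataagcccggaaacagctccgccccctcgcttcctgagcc
TYMS: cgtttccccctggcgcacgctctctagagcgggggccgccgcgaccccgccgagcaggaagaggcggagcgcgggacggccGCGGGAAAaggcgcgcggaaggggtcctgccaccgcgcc
PSAT1: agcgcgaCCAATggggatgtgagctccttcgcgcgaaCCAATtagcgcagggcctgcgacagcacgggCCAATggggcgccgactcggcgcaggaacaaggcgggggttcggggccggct
MTHFD1: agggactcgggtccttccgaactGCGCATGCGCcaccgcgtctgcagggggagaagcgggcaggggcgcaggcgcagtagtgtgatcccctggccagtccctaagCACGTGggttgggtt

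Of the factors known for these motifs, ATF4, MYC and E2F1 were looked at, and all were detected. ATF4, which is known to activate serine synthesis genes, stood at 650 and 608 TPM, MYC, which binds E-boxes, at 73.7 and 71.5 TPM, and E2F1 at 42.9 and 37.7 TPM. ATF4 was thus at the level of NME2, while MYC and E2F1 were in the range of the lower members.

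Of 83 other genes of these pathways 66 were detected, and their median was 20.02 TPM. Of the purine genes outside the 33, 13 of 18 were detected, among them the guanylate kinase GUK1 at 216 ± 11.5 TPM and the nucleoside phosphorylase PNP at 79.0 ± 6.97 TPM (SD, n = 2). XDH, which oxidises purines to uric acid, had 0 counts in both libraries, and GDA, AMPD1 and AMPD3 did not reach the threshold in both replicates. Of the pyrimidine genes 9 of 13 were detected, led by the kinases UCK2 at 108 ± 5.78, CMPK1 at 55.7 ± 2.26 and UCK1 at 43.7 ± 1.09 TPM. The pyrimidine breakdown genes DPYD, DPYS and UPB1 were at or below 0.210 TPM in each replicate, and UPP2 was not detected either.

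Of the deoxynucleotide genes 10 of 11 were detected, led by DCTPP1 at 120 ± 12.9, the thymidylate kinase DTYMK at 67.0 ± 4.99 and DGUOK at 60.1 ± 1.88 TPM, and CMPK2 was not. Of the NDP kinase genes 5 of 6 were detected, led by NME4 at 242 ± 5.30 TPM, whose replicate values overlapped those of NME1, followed by NME1-NME2 at 95.9 ± 2.30 and NME3 at 52.5 ± 1.43, and NME5 had 0 counts. Of the folate genes 16 of 18 were detected, among them SFXN1, a mitochondrial serine carrier, at 224 ± 26.3 and the folate carrier SLC19A1 at 74.2 ± 6.79 TPM. ALDH1L1 and the receptor FOLR1 were not detected.

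Of the serine and glycine genes 10 of 11 were detected, led by CBS, which joins serine to homocysteine, at 274 ± 2.34, the amino acid carrier SLC1A5 at 143 ± 5.73 and DLD at 90.9 ± 3.49 TPM, and the serine dehydratase SDS was not. Of the methionine cycle genes MAT2A at 183 ± 5.07, AHCY at 174 ± 7.55 and MAT2B at 36.6 ± 0.177 TPM were detected, whereas MAT1A and BHMT, known from liver, and GNMT were not. Between the libraries 4 of the 69 such genes that were tested differed, beside the background of 3.87%. They were AK1, GGH, GCSH and DLD, named after their values were seen.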

How the data were processed

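Poly(A)+ RNA of 2 HEK293T libraries was sequenced with 50 bp reads. The submitters' processing notes name Trimmomatic 0.36, STAR 2.6.1c and RSEM 1.3.1, with GRCh37 and, per the study's methods, Ensembl release 87. Those methods give featureCounts as the counter, but the columns carry RSEM's names. Estimated counts were deposited as reads per gene, with reads that fit several genes shared out among them. TPM values, scaled by effective length and library, and FPKM values were also made by the authors. Scores that the authors deposited are the SD over RSEM's sampling of each count and the limits of a TPM interval. In 11 and 10 of the 33 genes the TPM lay outside this 95% interval, which belongs to the posterior mean, and the intervals of the replicates overlapped in 32. A table of pooled reads holds the authors' values and was used for no test. Poly(A) selection and the sharing of reads affect levels of overlapping genes.

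GENCODE release 44, lifted to GRCh37, gave a symbol for 96.1% of 57736 identifiers. The members and lists were chosen with earlier results of these data known. All members were to be named, and of other pathway lists the 3 highest and those not detected. Some genes that this rule names are not reported here. Genes with a TPM of 1 or more in each replicate were called detected. Levels were compared on TPM, ratios of isozymes also as log2(TPM + 1), without a test. For the comparison of the libraries, counts were rounded and tested by a two-sided exact binomial test (scipy 1.17.1) with TMM factors (edgeR 4.0.16, R 4.3.3). Genes needed 10 or more counts in sum, and p-values were adjusted by Benjamini-Hochberg. Log2 differences of counts used 0.5 added counts. Tested on simulated data over 17920 genes, this recovered 113 of 200 genes changed 1.5-fold and 148 of 200 changed 2-fold. It also called 4 and 3 unchanged genes. The simulated counts varied by counting error only, as the test assumes, so recovery in real libraries may differ. Motif matches and 50-base windows were counted in Python 3.11.15. Alternatives were other thresholds, pseudocounts, normalizations, filters, groups, and leaving out each replicate.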

Additional observations from a re-analysis of the deposited data

How the results depend on the processing

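Of 82 alternative values 57 kept their direction and stayed within the spread or threshold of the reported one, 22 moved and 3 turned direction. All 33 genes stayed detected under every threshold tried. The number of the 33 genes differing between the libraries was 1, beside 3.87% of all genes tested. It was 3 (PPAT, PHGDH and MTHFD1L) with total-count normalization, beside 3.93% of all genes tested. With whole counts only it was 0 of 14 tested, beside 0.807%, and with no adjustment 7, beside 13.3%. It stayed 1 with RLE (beside 3.87%), no filter (1.84%) or a summed count of at least 100 (4.24%). Of the genes with whole counts, ATIC, DHODH, HPRT1 and PHGDH had unadjusted p-values below 0.05 in the exact binomial test.

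The purine to salvage ratio of medians was 1.34 and became 1.32 with means, 1.342 with the posterior mean TPM, 2.44 with counts not divided by length and 0.680 with wider groups, a reversal. The pyrimidine ratio was 0.659 and became 0.764, 0.687, 1.54 (a reversal) and 0.380 under these in turn, and the folate ratio was 1.305 and became 1.07, 1.37, 1.89 and 0.678 (a reversal). The log2 ratio of IMPDH2 to IMPDH1 was 1.80, with 1.76 for the posterior mean TPM and 1.33 without length. That of PRPS1 to PRPS2 was 1.96 and 1.67 without length, and that of SHMT2 to SHMT1 was 1.73, with 1.75 for pseudocounts of 0.1 and 0.01, 1.77 for the posterior mean TPM and 1.51 without length. That of NME1 to NME2 was -1.36 and -1.10 without length, and that of MTHFD2 to MTHFD1 was -0.09 and -0.93 without length. The share of counts at pseudogene copies was 0.171% and 0.332% as a share of TPM. Leaving out a replicate gave 1.335 to 1.336 for purine, 0.646 to 0.673 for pyrimidine and 1.266 to 1.344 for folate. These alternatives differ from the reported values by construction, in whether length is divided out and which genes form a group, and the cause of the other moves was not tested.

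No paired comparison of conditions was possible because there is 1 group, and the ratios of genes were taken within each library. With 2 libraries no error beyond the spread between them can be given, and DHODH rested on the fewest counts of the 33 genes.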
